A study of Mus musculus with 27 samples.

Results

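The core response of the mouse rectum to radiation in its acute phase was taken from 15 libraries of a series of 27. Of these, 9 came from mice killed 4 h, 1 day or 3 days after irradiation (post-irradiation, PI) and 6 from sham-irradiated mice killed at 4 h or 3 days, with 3 mice per group and no sham group of its own at 1 day. A gene belonged to the core when its counts differed between PI and sham mice at each of the 3 times, always in the same direction, at an adjusted p under 0.05. The sham mice at 4 h served as controls for both 4 h and 1 day, so that these effects share 3 libraries, and the sham mice at 3 days served for 3 days. Of 15071 genes with enough counts to be tested at all 3 times, 265 met the rule, 195 of them higher and 70 lower in PI rectum (1.29% and 0.464% of the genes tested).

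PI mice were female C57BL/6J mice of 8 to 10 weeks whose lower pelvis had been exposed to a single X-ray dose of 25 Gy over a length of 1 cm, with lead over the remaining body. Sham mice had the same strain, sex and age and were anesthetized in the same way but received no dose. A piece of rectum was sequenced in bulk, so that a change in the number of cells of a type and a change in RNA per cell cannot be told apart.

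In a damaged cell, p53 is kept from its usual rapid breakdown and turns on genes that halt the cell cycle, trigger death, or feed back on p53 itself, the last through Mdm2, the ligase that marks p53 for destruction. Dividing crypt cells of the intestine are known for a fast and strong answer of this kind, and loss of crypt cells with later regrowth is the classical acute picture in the irradiated gut. p53 acts mainly by binding DNA, often near the start of its targets.

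The libraries held 19124092 to 21527405 counts each, and mitochondrial genes took 4.36% to 6.45% of them. The label of the tissue was checked against markers. Summed CPM values (counts per 1e6, scaled to the library total by TMM normalization) of 11 general epithelial markers were 15081 to 19623 in PI and 15399 to 19626 in sham libraries, and those of 8 smooth muscle markers 2648 to 5387 in PI and 2150.04 to 4292 in sham libraries. Markers of stratified squamous epithelium, such as that of the anal canal, were uneven, with a summed level of 531 CPM in 1 PI library at 1 day (replicate 1) and 166 CPM in 1 at 4 h (replicate 3), 19.3 to 84.0 CPM in the other PI libraries and 6.15 to 36.6 CPM in sham libraries. B cell markers summed to 1.01 to 32.6 CPM in PI libraries. Sham libraries were uneven, with 79.0, 6.88 and 85.3 CPM at 4 h and 1.49, 19.9 and 220 CPM at 3 days, and overlapped with PI. Of 8 tested markers, 5 were lower (62.5%, against 5.17% of all genes) and 0 higher in the pooled comparison described below. Their median log2 fold change was -3.38. None of them was called at a single time, and their part in the results was not tested.

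Promoter sequences are shown for the core genes whose promoter held a p53 element, and no test linked a match to a change. The p53 response element was searched in RefSeq promoters (mouse build GRCm38.p6, 250 bases before to 50 bases after the start of a gene) as 2 adjoining half-sites of 10 bases with at most 2 mismatches, none of them in the 4-base centre of a half-site. The motif is its own reverse complement, so that 1 search covers both strands. A promoter was at hand for 148 of the 195 higher core genes, and 6 of these held a match (4.05%), against 0 of 51 lower core genes and 20 of 11108 tested genes in all (0.18%). The 6 windows are printed 5′ to 3′ on the strand of the gene with the match in capitals.
Cdkn1a, chr17:29090923-29090952, plus strand: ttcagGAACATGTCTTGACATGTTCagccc
Gtse1, chr15:85859940-85859969, plus strand: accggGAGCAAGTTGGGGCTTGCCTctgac
Rps27l, chr9:66946291-66946320, plus strand: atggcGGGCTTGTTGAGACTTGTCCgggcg
Ms4a10, chr19:10974776-10974805, minus strand: tgaagGATCTAGTCCAGACATGCATctctg
Stox2, chr8:47352478-47352507, minus strand: ttatcGTACTTGTCCAGACAAGCCGctcac
Zfp365, chr10:67912701-67912730, minus strand: tagcaAGACTAGGCTGGGCAAGACTggcac
The match in the Cdkn1a promoter, with 1 mismatch, lay 51 to 32 bases before the start, whereas that of Gtse1, also with 1 mismatch, spanned the start. Of the 6 genes, Cdkn1a and Zfp365 stood on the p53 lists used below (2 of 23 listed core genes with a promoter, 8.7%), and 4 did not (4 of 125 unlisted ones, 3.2%). A match is a string of letters and not a bound site, and promoters with no match say nothing of p53. Likewise, the lists were written by hand, and absence from them does not make a gene a non-target.

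When the 9 PI libraries were pooled against the 6 sham libraries, 743 of 14524 genes were higher (5.12%) and 751 lower (5.17%) in PI rectum at an adjusted p under 0.05 by edgeR's quasi-likelihood test. DEGs, which also needed a log2 fold change beyond 1 in size and an adjusted p below 0.01, numbered 184 higher (1.27%) and 70 lower (0.482%). Of the 1494 called genes, 1462 had the same sign of effect at all 3 times, yet only 264 were called at each of them. Of the core, 194 of 195 higher and all 70 lower genes were called in the pooled comparison, and 139 and 24 were DEGs. The exception was Akr1b8, an aldo-keto reductase, with a pooled log2 fold change of 0.48 ± 0.16 (adjusted p = 0.072). These counts describe the choice of the core and do not test it.

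**Figure D1:**
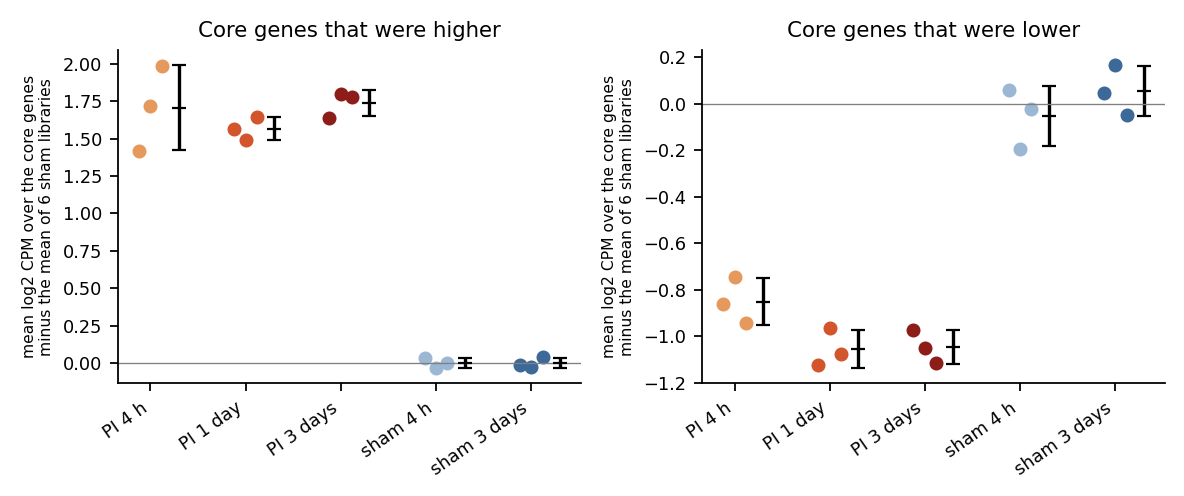
Mean log2 CPM over the 195 higher (left) and 70 lower (right) core genes in each of the 15 libraries, relative to the mean of the 6 sham libraries (y axis, log2 units), by group (x axis). Points are libraries and black marks with bars are means ± SD (n = 3). The 9 PI libraries lie between 1.42 and 1.98 for the higher genes and between -1.12 and -0.74 for the lower genes, away from the sham libraries at every time.

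Over the higher core genes, the mean log2 level was 1.42, 1.72 and 1.98 above sham in the 3 PI mice at 4 h, 1.56, 1.49 and 1.64 at 1 day and 1.64, 1.80 and 1.78 at 3 days, whereas sham libraries lay between -0.03 and 0.04. The medians of the fold changes were 1.57 at 4 h, 1.49 at 1 day and 1.59 at 3 days on the log2 scale, beside a median near 0 over all genes tested (-0.01, 0.02 and 0.03). In 176 of the 195 genes all 9 PI libraries lay above all 6 sham libraries, an arrangement that 2.06% of the genes tested showed. For the lower core, the median log2 fold changes were -0.78, -0.78 and -0.98 at the 3 times, and in 55 of 70 genes the PI libraries lay below every sham library (1.08% of the genes tested). Since these 15 libraries chose the core, its medians and its lack of overlap describe the choice, and nothing is read from their distance to all genes. The same holds for each core gene said below not to overlap. Lower genes with a fold change beyond 1 log2 unit at every time numbered 13, and higher ones 119. Transcripts assembled by the authors without a gene name accounted for 12 higher and 5 lower core genes and are not described further.

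Targets of p53 were many in the core. Of 49 tested genes on 3 hand-written lists of p53 targets, 31 were higher and 1 lower in the pooled comparison. Over all genes, 5.12% were higher and 5.17% lower. The lists were chosen with earlier results of these data known, so that their counts are a description. The 49 genes had a median log2 fold change of 1.02 beside one of 0.0034 over all genes. Of them, 26 were core genes with a higher level (53.1%, against 1.29% of all genes). The other listed genes comprised 1 lower core gene and 22 outside the core. In 24 of the 26, PI and sham libraries did not overlap, beside 176 of all 195 higher core genes and 2.06% of the genes tested. The same libraries chose the core, so that nothing particular to p53 targets is read from this count.

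**Figure D2:**
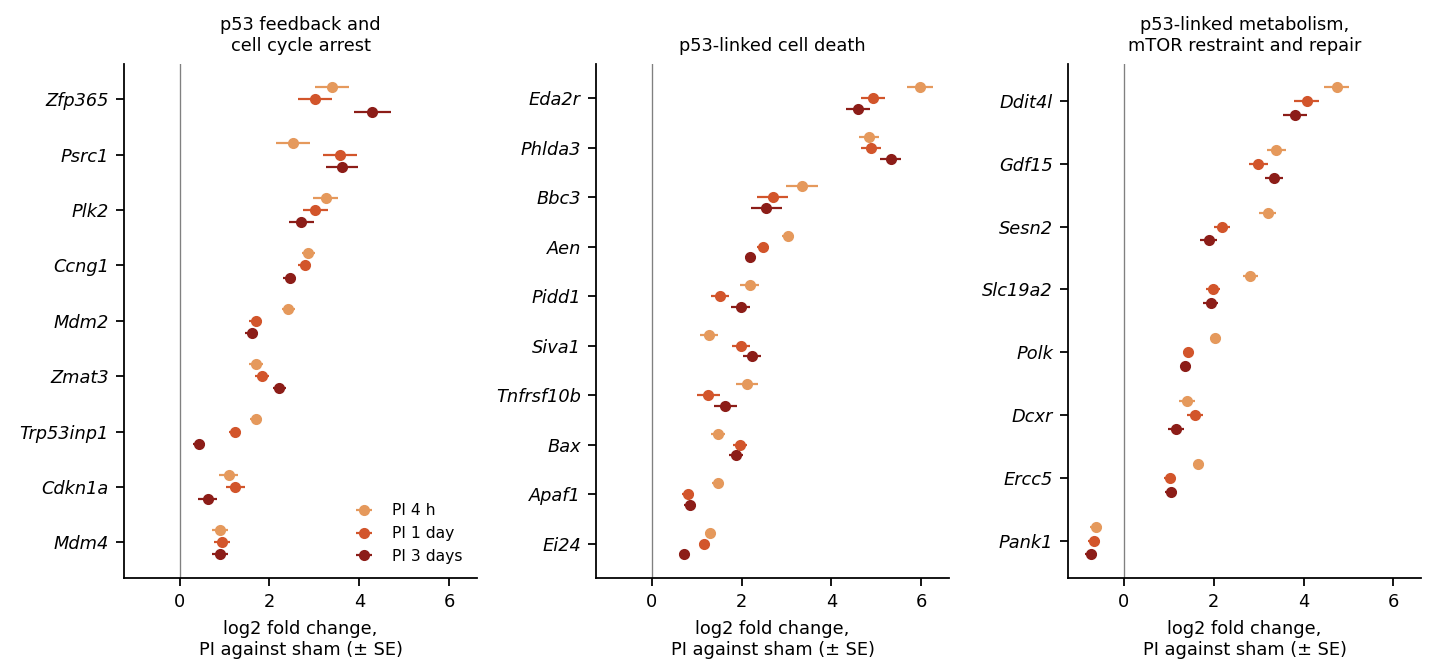
Log2 fold change of PI against sham rectum (x axis, ± SE, n = 3 mice per group) after 4 h, after 1 day and after 3 days for the core genes on the 3 p53 lists (rows), with the smallest pooled fold at the bottom of each panel. Phlda3 and Eda2r reach the highest values, Pank1 alone lies below 0, and 17 of the 26 higher members have their largest value at 4 h.

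Of 15 tested genes of p53 feedback and cell cycle arrest, 10 were higher in the pooled comparison (66.7%, against 5.12% of all genes). The core held 9 of them. Mdm2, the ligase of p53 (chr10:117125944-117147814 in mm9), had a lowest, median and highest level of 136, 185 and 335 CPM in PI and 45.9, 51.4 and 58.5 CPM in sham libraries. Its pooled log2 fold change was 1.95 ± 0.19 (adjusted p = 4.9e-06), with the 3 PI mice at 4 h highest and no overlap with sham. Its partner Mdm4, which binds p53 and blocks it, was 1.94-fold higher, with log2 fold changes of 0.90, 0.94 and 0.91 after 4 h, after 1 day and after 3 days, the narrowest span in the whole core. Ccng1, encoding cyclin G1 (chr11:40562054-40568813), had 613, 823 and 1111 CPM in PI and 121, 125 and 147 CPM in sham libraries, a log2 fold change of 2.67 ± 0.12 (adjusted p = 2.5e-10). The lowest PI library lay above the highest sham library.

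Cdkn1a, encoding the kinase inhibitor p21 that stops cells before DNA replication (chr17:29227924-29237667), was already abundant in sham rectum. It had 389, 640.2 and 739 CPM in PI against 209, 306 and 389 CPM in sham libraries, a log2 fold change of 0.96 ± 0.16 (adjusted p = 0.00074). The lowest PI library, at 3 days, fell just below the highest sham library. Trp53inp1, a p53-induced stress protein, overlapped likewise, with 281, 555 and 805 CPM in PI and 219, 235 and 299 CPM in sham libraries, and its log2 fold change declined over the times, 1.71 at 4 h, 1.23 at 1 day and 0.44 at 3 days.

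Plk2, a polo-like kinase, had 85.6, 115 and 169.8 CPM in PI and 10.8, 15.05 and 21.4 CPM in sham libraries (log2 fold change 2.98 ± 0.20, adjusted p = 5.5e-08). Zmat3, an RNA-binding zinc finger protein, was 3.87-fold higher and Psrc1, a spindle-associated protein, 9.24-fold higher, without overlap. Zfp365 (chr10:67348851-67375410), a protein linked to genome stability whose promoter window is shown above, had 11.3, 16.4 and 33.1 CPM in PI and 0.5904, 1.37 and 2.14 CPM in sham libraries. The highest Zfp365 level came from 1 PI library at 4 h (replicate 3), apart from the other 8, and no PI library reached down to the sham range.

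Of 16 tested genes of p53-linked cell death, 13 were higher (81.25%, against 5.12% of all genes) and 10 were in the core. Phlda3 (chr1:137662696-137665713), whose product competes with the survival kinase Akt for membrane lipids, had 134, 166 and 249 CPM in PI and 4.05, 5.13 and 7.204 CPM in sham libraries, a 32.3-fold rise (log2 fold change 5.01 ± 0.18, adjusted p = 2.1e-11). Its effect was 4.84, 4.88 and 5.32 log2 units at the 3 times. Eda2r (chrX:94529179-94572555), a receptor of the tumor necrosis factor family, had 49.6, 68.2 and 168 CPM in PI and 1.37, 2.44 and 3.21 CPM in sham libraries (log2 fold change 5.19 ± 0.34, adjusted p = 6.1e-08). Its 3 libraries at 4 h were the highest, and its effect was 5.97 log2 units at 4 h and 4.92 at 1 day (difference, 1 day minus 4 h, -1.05, adjusted p = 0.0072).

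Bax (chr7:52717065-52722268), which opens the outer mitochondrial membrane, moved the other way in time. It had 92.4, 144 and 165 CPM in PI and 34.5, 39.4 and 53.5 CPM in sham libraries (log2 fold change 1.75 ± 0.14, adjusted p = 6.2e-07), and its effect was 1.47 at 4 h, 1.97 at 1 day and 1.89 at 3 days. Bbc3, encoding the BH3-only protein Puma that releases Bax, had 16.4, 31.8 and 55.8 CPM in PI and 2.71, 3.77 and 6.71 CPM in sham libraries (log2 fold change 2.89 ± 0.27, adjusted p = 3.8e-06). Aen, an apoptosis-enhancing nuclease, was 5.79-fold higher, with 76.7, 93.1 and 143 CPM in PI and 14.2, 17.4 and 19.7 CPM in sham libraries. Both genes were without overlap between PI and sham.

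The remaining death genes of the core had pooled folds of 2.03 to 3.76. Pidd1, the scaffold that activates caspase-2, was 3.76-fold higher, Siva1, a pro-apoptotic adaptor, 3.62-fold, and Tnfrsf10b, the mouse receptor for the death ligand TRAIL, 3.45-fold. Apaf1, the backbone of the apoptosome, and Ei24, an endoplasmic reticulum protein, were 2.12-fold and 2.03-fold higher. The PI and sham libraries did not overlap in any of these 5 genes, as in 176 of all 195 higher core genes. Death genes on the list that were called in the pooled comparison but not at each time were Fas, Perp and Tnfrsf1a.

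Of 18 genes of p53-linked metabolism, mTOR restraint and repair, 8 were higher (44.4%, against 5.12% of all genes) and 1 lower (5.56%, against 5.17%). The core held 7 of the higher ones and the lower one. Gdf15 (chr8:73153292-73156355), a secreted stress hormone, had 71.3, 106 and 117 CPM in PI and 6.004, 10.2 and 13.1 CPM in sham libraries (log2 fold change 3.21 ± 0.17, adjusted p = 6.6e-09). Its effect was steady at 3.39, 3.00 and 3.35 log2 units. Ddit4l, which restrains the growth kinase complex mTORC1, had 22.3, 31.4 and 56.3 CPM in PI and 1.21, 1.93 and 2.29 CPM in sham libraries, an 18.8-fold difference (log2 fold change 4.23 ± 0.26, adjusted p = 3.0e-08). Sesn2, a sestrin that also restrains mTORC1, was 5.67-fold higher and was at its peak at 4 h in all 3 mice. Slc19a2, a thiamine transporter, was 4.81-fold higher, and Dcxr, a sugar reductase, 2.51-fold.

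Both repair enzymes of the core on this list rose. Polk, a polymerase that copies past damaged bases, had 48.4, 64.5 and 112 CPM in PI and 16.6, 22.3 and 27.4 CPM in sham libraries, and Ercc5, a nuclease of nucleotide excision repair, 39.8, 48.1 and 83.8 CPM in PI and 20.6, 22.4 and 24.4 CPM in sham libraries. Neither overlapped between PI and sham. Pank1, a pantothenate kinase at the first step of coenzyme A synthesis and a target of p53 in other settings, went down. It had 26.9, 31.4 and 36.3 CPM in PI and 43.9, 48.5 and 62.1 CPM in sham libraries (log2 fold change -0.71 ± 0.09, adjusted p = 4.0e-05), below every sham library.

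Other classical targets did not pass the test. Gadd45a, a growth arrest gene, had a pooled log2 fold change of -0.41 ± 0.22 (adjusted p = 0.27), and Ddb2, a damage sensor of excision repair, one of -0.17 ± 0.12 (adjusted p = 0.42). Pmaip1, encoding the BH3-only protein Noxa, had 0.38 ± 0.23 (adjusted p = 0.31) and Sesn1, a sestrin like Sesn2, -0.19 ± 0.21 (adjusted p = 0.64). Trp53 itself, encoding p53, had 38.5, 47.3 and 58.9 CPM in PI and 30.4, 34.4 and 42.6 CPM in sham libraries, with overlap. Its pooled log2 fold change was 0.40 ± 0.12 (adjusted p = 0.040), it was not called at 1 day (0.23, adjusted p = 0.37), and its pooled adjusted p rose above 0.05 when any 1 of 9 libraries was left out, up to 0.0851.

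**Figure D3:**
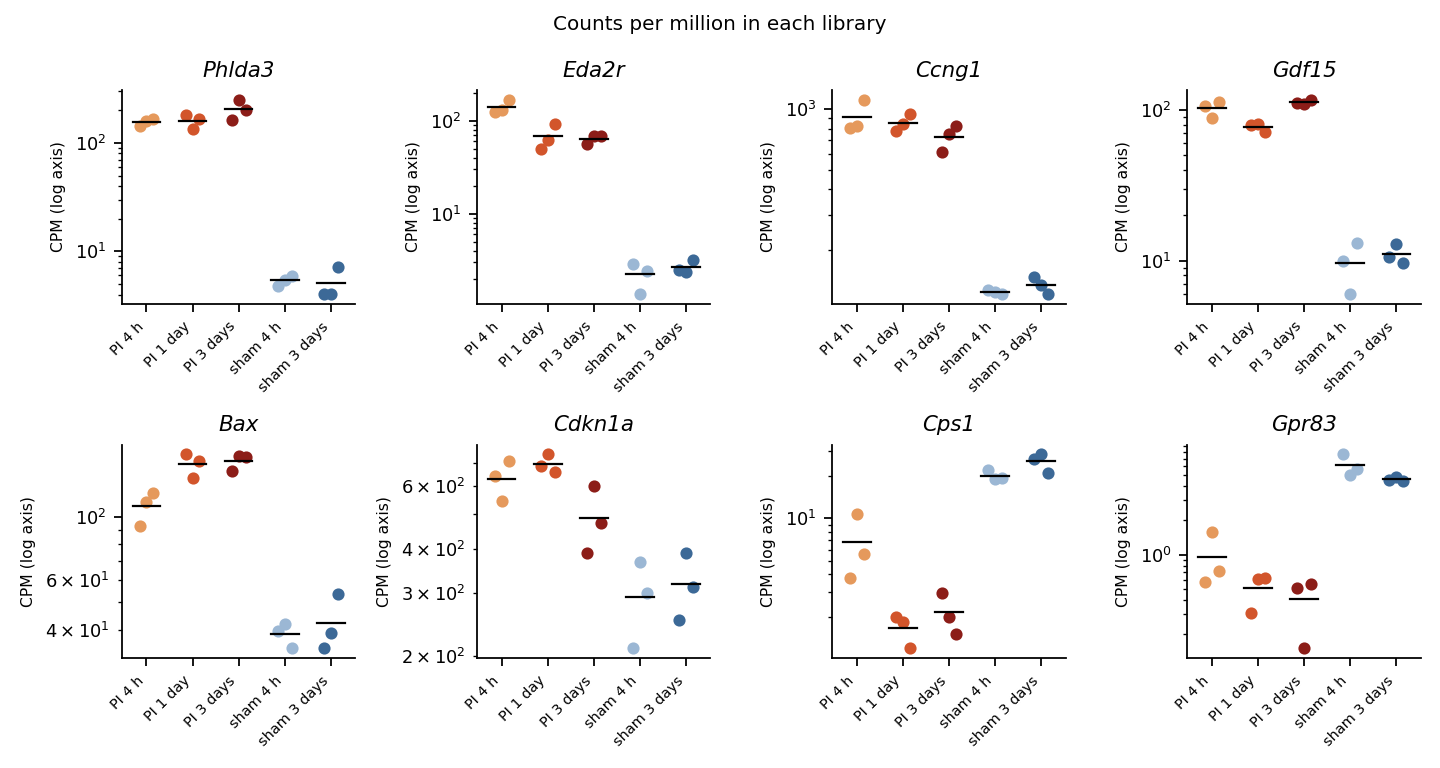
CPM (y axis, log scale) of 8 core genes in each of the 15 libraries by group (x axis). Points are libraries and lines group means (n = 3 mice). Phlda3, Eda2r, Ccng1, Gdf15 and Bax stand apart from sham at every time, Cdkn1a touches the sham range at 3 days, and Cps1 and Gpr83 lie below sham throughout.

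The 4 genes with a p53 element in the promoter window that stood on no p53 list were drawn from the higher core, so that their direction was fixed by that choice and their values are a description. Gtse1 (chr15:85690137-85707002), a protein that in human cells binds p53 and carries it out of the nucleus, had 23.04, 41.5 and 57.2 CPM in PI and 2.91, 4.73 and 7.402 CPM in sham libraries (log2 fold change 3.05 ± 0.28, adjusted p = 2.5e-06). Ms4a10 (chr19:11036787-11049160), a membrane protein of the MS4A family, had 19.5, 46.4 and 74.4 CPM in PI and 2.41, 2.73 and 3.55 CPM in sham libraries (log2 fold change 4.03 ± 0.30, adjusted p = 2.7e-07). Stox2, a winged-helix protein, was 4.13-fold and Rps27l, a ribosomal protein of the S27 family, 2.16-fold higher, and none of these 4 genes overlapped between PI and sham. Reads of Rps27l may be shared with its close relatives, which leaves its level less certain.

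The widest ratios came from genes that were nearly silent in sham rectum. Sec14l5, a SEC14-like lipid-binding protein, had 3.39, 4.14 and 36.9 CPM in PI and 0, 0.04901 and 0.153 CPM in sham libraries, where only 7 reads were counted over all 6. The PI library with the most squamous markers at 4 h (replicate 3) held its highest value. 1700007K13Rik, a gene without an assigned role, had 5.76, 8.21 and 20.1 CPM in PI and 0, 0.124 and 0.295 CPM in sham libraries, and Atg9b, a lipid scramblase of autophagy, 0.778, 4.55 and 33.3 CPM in PI and 0, 0.224 and 0.683 CPM in sham libraries. Mab21l3 had 2.53, 4.98 and 16.3 CPM in PI and 0, 0.1002 and 0.345 CPM in sham libraries, and S100a2, a calcium-binding protein, 1.13, 3.401 and 9.39 CPM in PI and 0, 0.0506 and 0.148 CPM in sham libraries. No fold is given for these 5 genes, since the sham libraries held 7 to 32 reads in all for each. The PI libraries lay above every sham library in all 5, as in 176 of the 195 higher core genes and 2.06% of the genes tested. These libraries also chose the genes, so that nothing is read from this. Atg9b differed strongly among the times, with its 3 highest libraries all at 3 days.

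Genes with more reads in sham tissue included Slc25a48, a mitochondrial carrier, with 9.905, 20.8 and 39.7 CPM in PI and 0.714, 1.15 and 1.83 CPM in sham libraries (log2 fold change 4.1 ± 0.31, adjusted p = 2.9e-07). Abcb1b, one of the mouse drug efflux pumps called P-glycoprotein, had 16.1, 21.8 and 49.6 CPM in PI and 0.879, 1.51 and 1.96 CPM in sham libraries (log2 fold change 4.08 ± 0.29, adjusted p = 1.7e-07). Sulf2, an enzyme that trims sulfate from heparan chains outside the cell, had 26.1, 116 and 181 CPM in PI and 8.17, 11.6 and 14.3 CPM in sham libraries, and its effect grew over the times, 1.78, 3.1 and 3.91 log2 units. PI and sham did not overlap in these 3 genes.

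Several core genes are known from stratified or basal epithelium. Krt15, a keratin of basal cells, had 11.8, 27.4 and 40.98 CPM in PI and 0.886, 1.02 and 4.44 CPM in sham libraries (log2 fold change 3.97 ± 0.45, adjusted p = 2.8e-05). It was the only core gene among the 9 squamous markers tested at the 3 times. In the 3 PI libraries at 3 days Krt15 reached 27.5, 39.1 and 40.98 CPM, while Krt5 was at 0.102, 0.249 and 0.202 CPM and Krt1 at 0, 0.0995 and 0 CPM. Other markers were raised in the same libraries, Lor, encoding a protein of the cornified envelope, with 20.2, 19.5 and 22.3 CPM in PI at 3 days and 0.603 to 1.68 CPM in sham libraries, and Krt4, a keratin, with 11.1, 14.3 and 9.74 CPM in PI at 3 days and 0.0503 to 6.64 CPM in sham libraries. In the PI library with the highest squamous level (1 day, replicate 1) Krt15 was at 27.4 CPM, Krt5 at 14.55 CPM and Krt1 at 113 CPM. The part of squamous tissue in the level of Krt15 was not tested.

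Col17a1 (chr19:47720834-47766584), a collagen of the hemidesmosomes that anchor epithelial cells, had 5.46, 7.07 and 52.8 CPM in PI and 0.394, 0.672 and 0.855 CPM in sham libraries. The highest value came from the PI library at 4 h with 166 CPM of squamous markers. Each PI library lay above all sham libraries, and the 3 PI libraries at 3 days, with 64.0 to 84.0 CPM of squamous markers, also exceeded the sham range of these markers. The part of squamous tissue in Col17a1 was not tested. Lama5, a laminin chain of the epithelial basement membrane, had 157, 189 and 256 CPM in PI and 23.9, 34.9 and 55.7 CPM in sham libraries (log2 fold change 2.36 ± 0.17, adjusted p = 1.5e-07). Csta1, a protease inhibitor of the cystatin family, had 7.49, 32.1 and 67.04 CPM in PI and 2.29, 3.61 and 5.03 CPM in sham libraries and peaked at 1 day, with effects of 1.47, 3.93 and 2.87 log2 units. When both libraries with the most squamous marker counts were left out, 152 higher and 42 lower core genes remained by count, of which 145 and 37 belonged to the original core.

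Detoxifying enzymes went in both directions. Ephx1 (chr1:182906286-182951035), the microsomal epoxide hydrolase, had 141, 207 and 322 CPM in PI and 21.2, 23.7 and 33.3 CPM in sham libraries (log2 fold change 3.1 ± 0.20, adjusted p = 5.5e-08), highest in the 3 mice at 1 day. Gsto1, an omega-class glutathione transferase, was among the most abundant core genes, with a mean of 1031 FPKM in PI and 380.2 FPKM in sham libraries and a log2 fold change of 1.47 ± 0.17 (adjusted p = 2.6e-05). Gpx2, a glutathione peroxidase of the gut epithelium, had a log2 fold change of 1.08 ± 0.24 (adjusted p = 0.0088) but overlapped at the edge, with 307, 447 and 905 CPM in PI and 185, 237 and 313 CPM in sham libraries. Hmox1, the heme oxygenase, was 2.32-fold higher.

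Lower members of this kind were mu-class glutathione transferases and cytochromes P450. Gstm3 had 5.86, 13.4 and 16.7 CPM in PI and 24.2, 29.9 and 40.6 CPM in sham libraries (log2 fold change -1.3 ± 0.18, adjusted p = 0.00017), and Gstm2 had a log2 fold change of -0.62 ± 0.09. The mu-class genes are near copies of one another, so that their reads may have been split in either way. Cyp2w1, a cytochrome P450 known from the colon, had 2.06, 5.89 and 12.04 CPM in PI and 14.3, 23.3 and 39.2 CPM in sham libraries (log2 fold change -2.02 ± 0.30, adjusted p = 0.00035), and Cyp2f2 had effects of -0.59, -1.05 and -2.61 log2 units at the 3 times. Of 28 tested phase I genes on a hand-written list, 3 were higher (10.7%, against 5.12% of all genes) and 5 lower (17.9%, against 5.17%) in the pooled comparison, with a median log2 fold change of -0.27. Of 33 glutathione and NRF2 genes 5 were higher and 5 lower (15.2% each), with a median of -0.03.

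Growth genes of the crypt were split. Ccnd1, encoding cyclin D1, had 86.4, 179 and 353 CPM in PI and 55.3, 57.0 and 70.3 CPM in sham libraries (log2 fold change 1.78 ± 0.25, adjusted p = 0.00019), with effects of 1.23, 1.59 and 2.35 log2 units. Myc, a transcription factor that drives growth, was 3.12-fold higher and Cd44, a hyaluronan receptor of crypt cells, 3.17-fold higher, both without overlap. Smoc2, a secreted matrix protein that marks intestinal stem cells, was lower, with 9.89, 14.6 and 22.8 CPM in PI and 25.2, 33.5 and 38.8 CPM in sham libraries (log2 fold change -1.15 ± 0.16, adjusted p = 0.00012). Lgr5, the receptor that defines crypt base stem cells, had a pooled log2 fold change of -1.03 ± 0.24 (adjusted p = 0.011) but was called only at 4 h. Of 16 tested genes of crypt stem cells and Wnt response, 3 were higher (18.8%, against 5.12% of all genes) and 2 lower (12.5%, against 5.17%).

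Of 24 tested repair genes outside the p53 lists, 2 were higher (8.33%, against 5.12% of all genes) and 0 lower in the pooled comparison, with a median log2 fold change of -0.09. Both were core genes, namely Mgmt, which removes alkyl groups from guanine, and Msh6, a mismatch sensor. Mgmt had 6.64, 37.5 and 40.8 CPM in PI and 3.47, 5.104 and 6.199 CPM in sham libraries, and its effect of 1.02 at 4 h was smaller than that of 3.1 at 1 day (difference, 1 day minus 4 h, 2.08, adjusted p = 6.8e-05). Msh6 had a log2 fold change of 0.56 ± 0.09 (adjusted p = 0.00063).

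Abundant epithelial genes were also in the core. Muc13, a transmembrane mucin and the core gene with the highest mean level, reached 1279.9 FPKM in PI and 779 FPKM in sham libraries. Its effect was 0.71, 0.80 and 0.70 log2 units. Ctsd, the lysosomal protease cathepsin D, was 1.92-fold higher, and Tnip3, a binding partner of the NF-kB inhibitor A20, 3.67-fold higher. PI and sham libraries did not overlap in these 3 genes.

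The lower core held genes of sterol and fatty acid metabolism. Dhcr7, the enzyme of the last step of cholesterol synthesis, had 70.2, 84.2 and 104 CPM in PI and 106, 133 and 168 CPM in sham libraries (log2 fold change -0.73 ± 0.10, adjusted p = 0.00019). Stard4, which carries sterols inside the cell, had a log2 fold change of -0.76 ± 0.13.

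Of 22 genes on the cholesterol list, 0 were higher and 11 lower (50%, against 5.17% of all genes) in the pooled comparison, with a median log2 fold change of -0.64. Dhcr7 and Stard4 were among the members called at each time, whereas Ebp (-0.52 ± 0.09, adjusted p = 0.0015) and Sc5d (-0.49 ± 0.09, adjusted p = 0.0021), late enzymes of the pathway, were called in the pooled comparison but not at each time. Outside the list, Cyp39a1, a hydroxylase of oxysterols, had 10.8, 12.2 and 13.8 CPM in PI and 20.4, 28.5 and 31.98 CPM in sham libraries (log2 fold change -1.2 ± 0.10, adjusted p = 8.0e-07). Acss2, which makes acetyl-CoA from acetate, had 93.1, 97.2 and 143 CPM in PI and 189, 219 and 272 CPM in sham libraries, and Fads2, a fatty acid desaturase, 268, 316 and 370.3 CPM in PI and 491, 551 and 649 CPM in sham libraries. All 3 genes lay below every sham library in every PI library.

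The largest decreases were found elsewhere. Gpr83 (chr9:14664654-14675233), a G protein-coupled receptor, had 0.149, 0.571 and 1.59 CPM in PI and 4.49, 4.95 and 7.65 CPM in sham libraries (log2 fold change -3.12 ± 0.33, adjusted p = 8.4e-06). Cps1 (chr1:67169600-67277833), the entry enzyme of the urea cycle, had 1.19, 1.99 and 10.8 CPM in PI and 18.9, 21.6 and 28.6 CPM in sham libraries (log2 fold change -2.72 ± 0.40, adjusted p = 0.00032). Its effect deepened after 4 h, -1.6 at 4 h against -3.6 at 1 day and -3.56 at 3 days, and no PI library reached the sham range in either gene.

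Mitochondrial enzymes near the urea cycle were lower as well. Oat, which turns ornithine into a proline precursor, had 91.8, 127 and 153 CPM in PI and 192, 234 and 258 CPM in sham libraries (log2 fold change -0.96 ± 0.11, adjusted p = 2.9e-05), Gatm, the first enzyme of creatine synthesis, was 3.02-fold lower, and Aldh1b1, an aldehyde dehydrogenase, 1.96-fold lower. Of 16 genes of the urea cycle, arginine and proline, 3 were higher and 3 lower in the pooled comparison (18.8% each, against 5.12% higher and 5.17% lower of all genes). Ehhadh, a peroxisomal enzyme of fatty acid oxidation, had a log2 fold change of -0.47 ± 0.07.

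Secreted proteins and regulators completed the named lower genes. Itih2, a heavy chain of the inter-alpha-trypsin inhibitor, had 4.95, 7.32 and 24.5 CPM in PI and 29.5, 34.0 and 41.1 CPM in sham libraries, with an effect of -0.48 at 4 h and -2.65 at 3 days. Ttr, the carrier of thyroid hormone and retinol, was 2.34-fold lower, and Timp4, an inhibitor of metalloproteinases, 3.13-fold lower with overlap at the edge. Fut9, a fucosyltransferase, was 2.81-fold lower, Fam46c, a poly(A) polymerase, 3.61-fold lower, and Klf12, a transcriptional repressor, 2.42-fold lower. Csrp2, a LIM domain protein, was the lower gene with the highest level, 117 FPKM in PI and 219 FPKM in sham libraries.

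Most genes that changed at a single time were outside the core. By time, 937 genes were higher and 944 lower at 4 h (6.22% and 6.26%), 382 higher and 328 lower at 1 day (2.53% and 2.18%), and 1968 higher and 1668 lower at 3 days (13.1% and 11.1%). Genes called in opposite directions at 4 h and 3 days numbered 206, of which 157 were lower at 4 h and higher at 3 days. Proliferation genes were called lower mainly at 4 h. Of 26 mitotic genes 0 were higher and 24 lower at 4 h, 0 and 2 at 1 day, and 3 and 0 at 3 days, and of 24 replication genes 0 and 16 at 4 h, 0 and 2 at 1 day, and 13 and 0 at 3 days.

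Mki67, the proliferation antigen, had log2 fold changes of -1.96 at 4 h (adjusted p = 0.00065), -1.25 at 1 day (adjusted p = 0.022) and 0.26 at 3 days (adjusted p = 0.52). Cdk1, the mitotic kinase, had -2.02, -0.65 and 0.50, and none of the 26 mitotic genes was called in the pooled comparison or in the core. The core held 1.29% of all genes as higher and 0.464% as lower. The lack of core genes on a list of this size is thus not read as a result. Of 20 tested genes on the list of TNF and NF-kB feedback, 6 were higher at 4 h, 1 at 1 day and 6 at 3 days. Shares of all genes that were higher were 6.22%, 2.53% and 13.1% at these times. The list held 0 core genes, from which nothing is read either. Icam1, an adhesion molecule of this list, had effects of 3.74, 1.13 and 1.45. Extracellular matrix genes gave 12 of 20 higher members at 3 days, 0 at 1 day and 0 at 4 h. Mast cell chymase Cma1, outside the core, had effects of 0.76 at 4 h, 4.26 at 1 day and 6.1 at 3 days. Of 4 mast cell markers tested at the times, 1 was higher and 1 lower at 1 day, and likewise at 3 days. The median log2 fold changes of these markers were -0.04, 0.01 and 0.23, and no change of mast cells is read from Cma1.

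**Figure D4:**
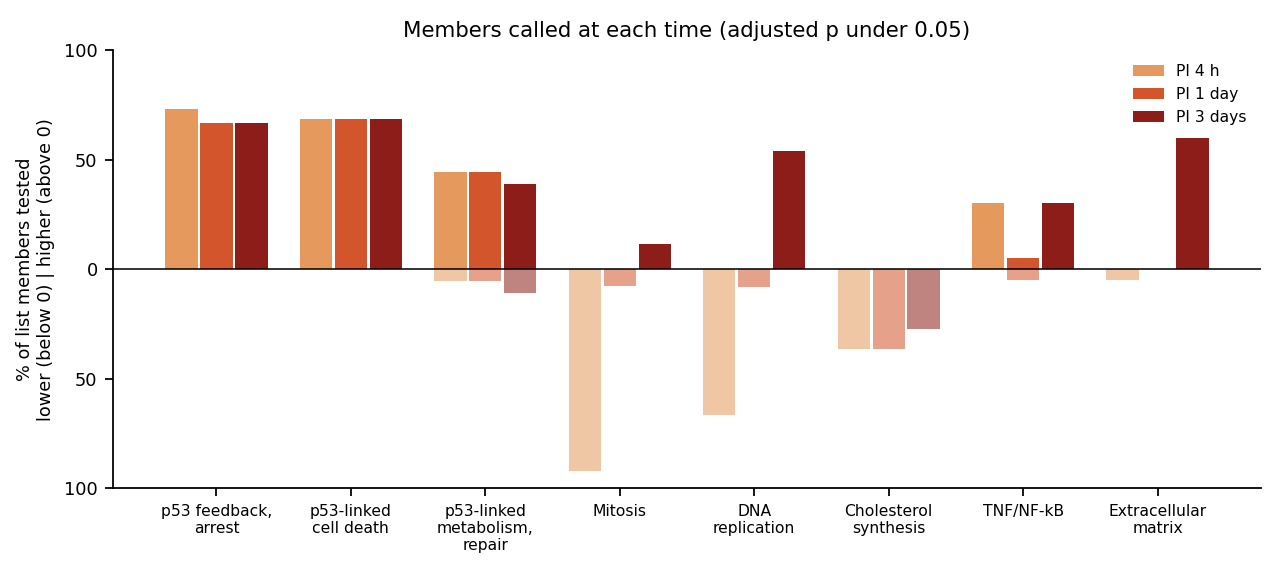
Share of tested members of 8 gene lists (x axis) called higher (bars above 0) or lower (paler bars below 0) in PI rectum after 4 h, after 1 day and after 3 days (y axis, % of members tested, adjusted p under 0.05). The 3 p53 lists keep a like share of higher members over the times, whereas mitosis and replication are lower at 4 h, and replication and extracellular matrix higher at 3 days.

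Membership in the core did not mean an equal effect at each time. Of the 195 higher genes, 93 had their largest effect at 4 h, 30 at 1 day and 72 at 3 days, and the 3 effects lay within 0.5 log2 units of each other in 69. At least 1 of 3 differences between times was called for 69 higher and 15 lower core genes. The share of all genes with at least 1 such call was not determined, so that nothing particular to the core is read from these counts. By single difference, 1 day minus 4 h was positive in 18 and negative in 40 higher core genes, where 12.1% of all genes differed. For 3 days minus 4 h these counts were 17 and 23 (17.8% of all genes), and for 3 days minus 1 day 2 and 0 (0.849%). Among the lower core genes they were 2 and 4, 1 and 11, and 0 and 2 in the same order. Among the 26 p53 members, 17 had their largest effect at 4 h, and their median log2 fold changes were 2.30, 1.98 and 1.96 at the 3 times. Of the lower genes 43 of 70 had their largest effect at 3 days.

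Because all 15 libraries chose the core, its stability was examined in libraries that a choice had not used. Genes called at both 4 h and 1 day in a fit of those 9 libraries alone were looked up in the 6 libraries of 3 days, fitted separately. Of 213 such higher genes, 212 could be tested and 170 were called higher at 3 days (80.2%, against 10.7% of all genes), 1 was called lower, and the median log2 fold change was 1.29. Of 132 lower genes, 130 could be tested, 58 were called lower (44.6%, against 10.3%) and 0 higher, with a median of -0.82. The share called was larger on the higher side than on the lower side, and this difference between the sides was not tested.

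At 2 and 8 weeks, other mice with their own sham controls were measured. Of 188 higher core genes that could be tested there, 74 were higher and 17 lower at 2 weeks (39.4% higher, against 21.6% of all genes), and 75 higher and 12 lower at 8 weeks (39.9%, against 18%), with median log2 fold changes of 0.39 and 0.47. Of the 70 lower core genes, 26 were lower and 5 higher at 2 weeks (37.1% lower, against 14.5%), and 23 lower and 6 higher at 8 weeks (32.9%, against 13%), with medians of -0.55 and -0.46. Median effects were smaller than in the acute phase. The acute libraries chose the core and the late ones did not, so that no decline is read from this difference. At both late times, 55 higher and 18 lower genes kept their call and direction. The share of all genes called alike at both late times was not determined, so that nothing is read from these numbers of genes. Squamous markers summed to 14.3 to 24.2 CPM in PI and 5.76 to 33.8 CPM in sham libraries at 2 weeks, but to 5182, 6680.1 and 6554 CPM in the 3 PI libraries and 7.89, 8.57 and 9.08 CPM in the 3 sham libraries at 8 weeks. Each of the 11 markers was above all sham libraries in every PI library at 8 weeks, Krt5 for example with 758, 2091 and 821 CPM in PI and 0.197, 0.198 and 0.201 CPM in sham libraries. The part of this squamous tissue signal in the values of the core at 8 weeks was not tested.

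**Figure D5:**
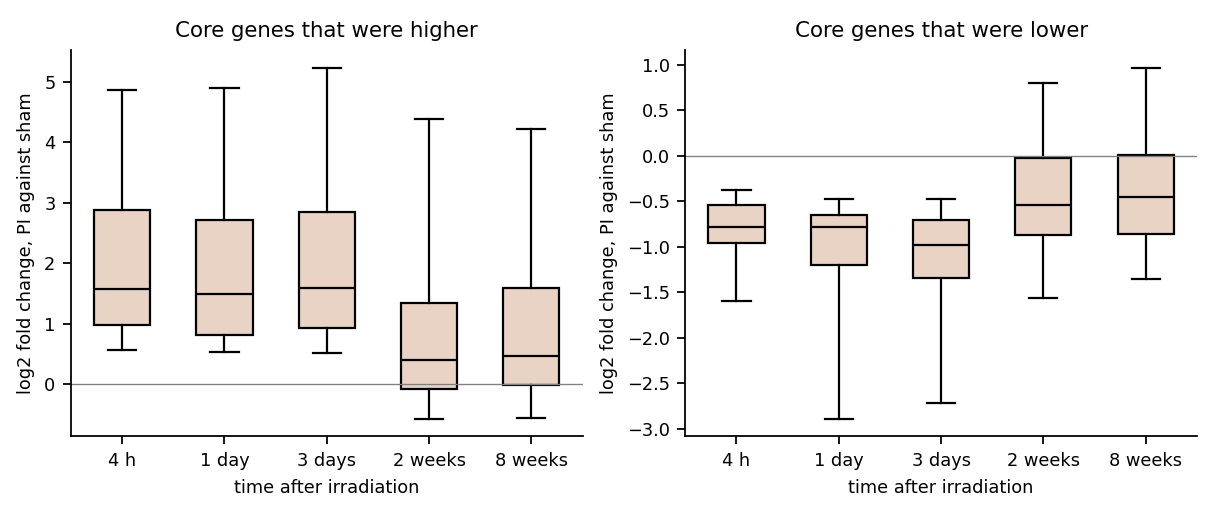
Log2 fold change of PI against sham (y axis) for the higher (left) and lower (right) core genes at each time after irradiation (x axis). Boxes span the quartiles with the median as a line, and whiskers the 5th to 95th percentile of genes, which are not replicates. The median of the higher genes is 1.57, 1.49 and 1.59 in the acute phase and 0.39 and 0.47 at 2 and 8 weeks. The acute libraries chose these genes and the late ones did not, so that no decline is read from the medians.

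Single members differed in how long they stayed changed. Phlda3 had log2 fold changes of 2.03 at 2 weeks (adjusted p = 0.00017) and 3.07 at 8 weeks (adjusted p = 2.1e-05), Eda2r of 1.65 and 2.03, and Plk2 of 1.06 and 2.01, all called at both. Bbc3 was at 0.00 (adjusted p = 1.00) and -0.16 (adjusted p = 0.78), and Mdm2 was called at 2 weeks (0.87, adjusted p = 0.013) but not at 8 weeks (0.06, adjusted p = 0.86). Gdf15 was lower in PI rectum at 8 weeks (-1.01, adjusted p = 0.011), and Trp53inp1 was lower at both late times. Of the 26 p53 members, 11 were higher and 1 lower at 2 weeks, and 7 higher and 2 lower at 8 weeks. Among all higher core genes tested, 39.4% were higher at 2 weeks and 39.9% at 8 weeks, and among all genes 21.6% and 18%. Nothing particular to the p53 members is read from these counts.

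Other members rose further or turned. Col17a1 was not called at 2 weeks (0.91, adjusted p = 0.20) but was at 8.05 at 8 weeks (adjusted p = 1.0e-05), with 74.5, 182 and 110.5 CPM in PI and 0.543, 0.297 and 0.502 CPM in sham libraries, and Sulf2 stood at 3.12 and 2.9, called at both. Cd44 had 4.4 (adjusted p = 0.0011) and 3.33 (adjusted p = 0.0044). Among lower core genes, Gatm (1.12 and 0.99) and Smoc2 (1.06 and 1.99) were higher at both late times. Gpr83 stayed lower, with -2.11 at 2 weeks (adjusted p = 0.0027) and -2.09 at 8 weeks (adjusted p = 0.0025). Acss2 likewise had -0.91 and -1.13, called at both times.

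The core was bounded by a threshold on adjusted p. Just inside it stood Cat, encoding catalase, with effects of -0.26, -0.38 and -0.52 log2 units and a largest adjusted p of 0.0499, and Zfp513 with 0.38, 0.50 and 0.45. Just outside stood Nt5c1a, a nucleotidase, with 0.74, 1.73 and 2.18 and a largest adjusted p of 0.0501, and Dhx37, a helicase, with 0.58, 0.54 and 0.59.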

How the data were processed

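RNA from rectal pieces of mice, 3 per group, was sequenced by the authors. The submitters' processing notes name fastp 0.18.0 for trimming, HISAT2 and the mm9 build for alignment, StringTie 1.3.1 for assembly, and RSEM for expression. The deposited counts are raw whole numbers of reads per gene, and the deposited FPKM values are scaled by gene length and library size by the authors. Not given in the sources used here are the counting program, its use of strand and its annotation release, so overlapping, antisense or near-identical genes may share reads. The tables hold 19690 genes, 1444 of them assembled without a name. No column was left out, and the authors' tables of comparisons, which hold fold changes and adjusted p-values, were not used.

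Tests on the counts used edgeR 4.0.16 under R 4.3.3 (TMM, filterByExpr, quasi-likelihood test, Benjamini-Hochberg over all genes tested). The 9 PI and 6 sham libraries were fitted as 2 arms (pooled) and as 5 groups (effect at each time), and the libraries of 2 and 8 weeks as 4 groups. CPM was computed from the counts with TMM-scaled totals, and ± is the SE of a log2 fold change or the SD, as stated. Replicates differed by more than sampling noise in every acute group (chi-square of counts over genes), and all were counted. Each library was taken as 1 mouse, as the labels name no pool, and p-values measure the spread between these samples. Steps were tested on simulated counts.

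The core, the lists and the rule for named genes were chosen with earlier results of these data known. The rule took the 15 higher and 15 lower core genes with the largest pooled fold change (mean of at least 1 FPKM), in each of 23 pathway lists the 4 members with the lowest p in the direction of most called members and the 2 in the other, Trp53, genes central to the study's acute phase, and the 10 core genes with the highest FPKM. The text names a part of them, and other named genes, among them the genes with a promoter match, Lama5, Sulf2, Abcb1b, Ccnd1 and the genes near the threshold, were chosen after their values were seen. Coordinates of genes are mm9 (GENCODE annotation of NCBIM37), and 17634 genes matched. Promoter sequences are RefSeq's on GRCm38.p6, matched by symbol or, failing that, by Ensembl identifier or synonym. Only promoter sequences of 300 bases were used. Alternatives were DESeq2 1.42.0, DESeq2's size factors, other filters on low counts, limma 3.58.1 on log2(FPKM + 1) and log2(FPKM + 0.1), other groupings of the sham libraries, a stricter threshold, a replicate block and leaving out each library. Plots were made with matplotlib 3.10.9 (Python 3.11.15).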

Additional observations from a re-analysis of the deposited data

Results flagged for a closer look

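Groups of values (9 PI or 6 sham libraries each) were checked for the CPM of the genes named and the mean level of the core. Of 202 such groups, 16 held a library set apart from the others of its group. Chance alone gives about 1 in 20 for libraries of 1 kind. The PI groups join 3 times, so that this rate is only a rough guide. In 6 of the 16 groups the library set apart was PI replicate 3 at 4 h, the highest for Zfp365 (33.1 CPM), Sec14l5 (36.9 CPM), 1700007K13Rik (20.1 CPM), Col17a1 (52.8 CPM), Abcb1b (49.6 CPM) and Msh6 (75.8 CPM). This library also had 166 CPM of squamous markers, and the part of either in the other was not tested. PI replicate 2 at 4 h was the highest PI library for the lower core genes Gpr83 (1.59 CPM), Cps1 (10.8 CPM) and Csrp2 (126 CPM). Among sham libraries, replicate 2 at 4 h was highest for Krt15 (4.44 CPM) and Muc13 (2740 CPM) and lowest for Fam46c (14.8 CPM), and replicate 1 at 4 h was highest for Timp4 (22.4 CPM). At 3 days, sham replicate 1 was highest for Trp53inp1 (299 CPM) and sham replicate 2 for Msh6 (46.6 CPM). Pmaip1 had 1 high sham library (110 CPM, replicate 2 at 4 h).

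The effect of radiation differed between times in 39 of the 82 core genes named, by an edgeR contrast of the effects with adjustment over all genes. This counts a call in any of 3 contrasts, for which the share of all genes was not determined. Of all genes, 12.1% differed between 1 day and 4 h, 17.8% between 3 days and 4 h and 0.849% between 3 days and 1 day. The difference with the smallest adjusted p of each gene follows on the log2 scale, later minus earlier time. Between 4 h and 1 day the effect shrank in the higher genes Eda2r (-1.05), Pidd1 (-0.652), Tnfrsf10b (-0.858), Apaf1 (-0.66), Mdm2 (-0.729), Slc19a2 (-0.829), Sesn2 (-1.01), Polk (-0.604), Ercc5 (-0.644), Sec14l5 (-2.1), Mab21l3 (-1.82), Col17a1 (-2.18), Cd44 (-1.49), Hmox1 (-0.791) and Tnip3 (-0.666). It grew between 4 h and 1 day in Bax (0.503), Siva1 (0.716), Psrc1 (1.04), Ms4a10 (1.31), Ephx1 (0.848), Csta1 (2.45), Gsto1 (0.545), Mgmt (2.08) and Ctsd (0.642). Between 4 h and 3 days it shrank in Aen (-0.835), Ei24 (-0.568) and Trp53inp1 (-1.27) and grew in Atg9b (4.29), Sulf2 (2.14) and Ccnd1 (1.12). The value of Atg9b is a fitted one that rests on few sham reads.

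Among the lower genes, the decrease deepened between 4 h and 1 day in Cps1 (-2.0) and Itih2 (-1.72), and between 4 h and 3 days in Fam46c (-1.02), Timp4 (-1.52), Cyp2f2 (-2.02), Ttr (-0.923), Oat (-0.56) and Csrp2 (-0.671). It eased between 4 h and 3 days in Cyp2w1 (1.62). The contrast of 1 day and 4 h compares PI libraries directly, because both effects use the same sham mice.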

How the results depend on the processing

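The core genes that were higher numbered 249 with DESeq2 (194 of the 195 kept), 290 with all 6 sham libraries as 1 control group (185 kept), 149 with each time fitted alone (144 kept) and 121 at an adjusted p under 0.01. The lower core was less stable, with 117 genes by DESeq2 (all 70 kept), 149 with all sham libraries as 1 control group (65 kept), 40 in a fit of all 27 libraries (37 kept), 22 at an adjusted p under 0.01 and 42 without the 2 libraries with the most squamous marker counts (37 kept), an alternative chosen after seeing the data. DEGs of the pooled comparison numbered 123 lower genes by DESeq2, 108 higher and 37 lower on log2(FPKM + 1) with a mean of at least 1, and 106 higher and 34 lower without that filter. When the mean of the 3 time effects was tested, 1319 genes were called higher and 1322 lower, and 137 lower genes were DEGs. Leaving out 1 library gave 148 to 205 higher core genes (lowest without sham 4 h replicate 1) and 38 to 84 lower ones (38 without sham 4 h replicate 1, 40 without sham 4 h replicate 3, 46 without PI 4 h replicate 3). It gave 162 to 205 higher and 45 to 104 lower DEGs and 524 to 772 higher and 491 to 808 lower calls, with 45 and 491 without sham 3 days replicate 2. For genes chosen at 4 h and 1 day, the share called at 3 days was 67.9% to 86.4% (higher) and 30.6% to 62.3% (lower), and the late counts were 61 to 84 and 19 to 39 at 2 weeks and 65 to 87 and 17 to 32 at 8 weeks. The cause of these changes was not tested.

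With the replicate number as a block, the core held 210 higher and 79 lower genes (185 and 65 kept). The pooled comparison then called 658 genes higher and 667 lower, and the adjusted p of Trp53 was 0.0537 by edgeR's quasi-likelihood test. Of 30 pairs of libraries with the same number, 9 correlated over 0.1 in their deviations (r from -0.217 to 0.447). Among 60 pairs of other numbers, 8 did (r from -0.367 to 0.19). Such correlations were thus more frequent among pairs with the same number, but not every pair had one. The main fits left the number out. Of 2681 values of single genes under the alternatives, 2657 kept direction and side of the threshold, 20 lost the call, 4 gained it and 0 turned. At these depths, genes with fewer than about 10 reads over the sham libraries, such as Sec14l5, have no reliable ratio.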
